A study of Mus musculus with 6 samples.

Results

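The 10 genes described here are feedback regulators and common targets of the TGF-beta and BMP pathways in 4T1-LM3, a murine mammary carcinoma cell line. They were taken by symbol from a table of 16426 genes, and all 10 had a row: Id1, Id2, Id3 and Smad6 as BMP-type genes, and Smad7, Skil, Pmepa1, Tgfbi, Tgfb1 and Bhlhe40 as TGF-beta-type genes. Both groups were cells of this line cultured in conditioned medium (CM), which carries what donor cells release. In 3 samples (Tdo2high MFs CM) it came from matrix fibroblasts (MFs) described as high in Tdo2, which encodes tryptophan 2,3-dioxygenase, and in 3 samples (control CM) the cell source is not given in the labels. Neither group was labelled as medium from fibroblasts low in Tdo2, the length of the culture is not given, and nothing in the labels says whether replicates were grown separately. The p-values therefore cover the spread among these 6 samples, part or all of which can be technical.

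TGF-beta and BMP ligands bind pairs of receptor kinases that phosphorylate SMAD proteins. BMP receptors act mainly through SMAD1, SMAD5 and SMAD9, which switch on the Id genes and Smad6, and TGF-beta receptors act mainly through SMAD2 and SMAD3, which switch on Smad7, Skil and Pmepa1. The inhibitory SMADs, SKIL and PMEPA1 then dampen the signal, so their mRNAs are often read as a trace of pathway activity. ID proteins are helix-loop-helix proteins without a DNA-binding region that hold E proteins in inactive pairs.

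The 2 genes of this set that passed the test described below were the related Id2 and Id3, in opposite directions. Id3 passed in only 7 of 16 alternative settings, and Id2 in all 16. The 250 bases before their start sites are shown here because the genes share a family and not a direction. Both come from RefSeq on GRCm38.p6, written 5′ to 3′ along the gene, and each was searched on both strands for 3 short motifs, marked by capitals. The first is the GC-rich motif GGCGCC, to which BMP-activated SMADs can bind. The second is the SMAD box GTCTG, which holds the core that SMAD proteins recognise. The third is the E-box CANNTG, which E proteins bind.
Id2, chr12:25096093-25096342, minus strand: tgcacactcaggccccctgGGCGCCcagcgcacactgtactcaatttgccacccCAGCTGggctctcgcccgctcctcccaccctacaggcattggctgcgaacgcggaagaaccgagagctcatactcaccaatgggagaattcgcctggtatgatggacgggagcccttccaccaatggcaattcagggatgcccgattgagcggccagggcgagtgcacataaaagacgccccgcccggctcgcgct
Id3, chr4:136143572-136143821, plus strand: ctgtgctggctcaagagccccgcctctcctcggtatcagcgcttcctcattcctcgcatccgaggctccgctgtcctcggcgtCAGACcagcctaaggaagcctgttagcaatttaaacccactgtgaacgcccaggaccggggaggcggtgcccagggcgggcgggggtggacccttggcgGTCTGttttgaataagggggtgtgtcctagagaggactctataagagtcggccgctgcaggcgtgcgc
The window of Id2 held 1 GC-rich motif, beginning at position -231 from the start site, and 1 E-box, at position -196, and no SMAD box. That of Id3 held 2 SMAD boxes, at positions -167 and -68, and neither of the other two motifs. No marked matches overlapped. Over 32851 promoter windows of the same length, 9.59% held the GC-rich motif, 42.2% a SMAD box and 66.2% an E-box. The core bound by the aryl hydrocarbon receptor, GCGTG, was in the window of Id3 and not in that of Id2 (28.2% of all windows). The core bound by the antioxidant regulator NRF2, TGANNNNGC, was in both (35.2% of all windows). Such matches describe these letters only. Promoter entries were matched for 5 of the 10 genes. Of the other 3 matched, Tgfbi had 1 GC-rich motif and 2 SMAD boxes, and Smad6 and Tgfb1 had none of the 3 marked motifs.

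Levels are given as FPKM from the deposited table, which is scaled by transcript length and by the size of the library, and changes as log2 fold changes of FPKM + 1, which understate the change of low genes. The 6 libraries were alike in scale, with FPKM sums of 438603 to 447415 and 10765 to 10791 genes at 1 FPKM or more. Read depth is unknown. A gene was tested if it reached 1 FPKM in at least 3 of the 6 libraries, which 10804 genes did, and it was called at an adjusted p under 0.05 by limma. Of the 10 genes, 8 were tested. Pmepa1 and Tgfbi stayed below 1 FPKM in every library and were not.
The cells had high levels of the epithelial keratins Krt8 and Krt18, with 272 and 356 FPKM in control CM, but the epithelial adhesion genes Cdh1 and Epcam reached at most 0.02 and 0.11 FPKM. Of 9 fibroblast markers in the table, 5 were tested, of which Npnt and Pdgfra were higher and Dcn and Fap lower with Tdo2high MFs CM. The summed level of the 9 was 114 to 119 FPKM in control CM and 125 to 130 FPKM in Tdo2high MFs CM. In the means Npnt went from 31.2 to 43.2 FPKM and Pdgfra from 41.9 to 47.3 FPKM. Dcn went from 15.5 to 10.9 FPKM and Fap from 4.00 to 3.04 FPKM, so the higher sum was not a rise shared by all markers. The collagens Col1a1 and Col1a2 did not exceed 0.12 and 0.01 FPKM. This marker shift moves with every difference between the media given here, and its part in them was not tested. The summed levels of myeloid and endothelial markers overlapped between the groups, and the 5 lymphocyte markers together stayed at or under 0.56 FPKM. In bulk RNA, fewer cells of a type and less RNA per cell cannot be told apart.

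Id2 rose with Tdo2high MFs CM, Id3 fell, and the other 6 tested genes did not pass the test. These 2 calls among 8 tested genes stand beside 7.41% called among all tested genes in either direction. By direction 1 of 8 rose, where 3.35% of all tested genes did, and 1 of 8 fell, where 4.06% did. Those shares are 362 and 439 genes, against 455 higher and 367 lower when libraries were scaled by the median of ratios. The groups did not overlap in 3 of the 8, Id2, Id3 and Smad6, where 29.2% of all tested genes showed no overlap (11.6% higher and 17.5% lower with Tdo2high MFs CM). Id2 passed in all 16 alternative settings, Id3 in 7 of 16, and the others in none that tested them.

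Id2 was the most abundant of the 10 genes. Its level in control CM was 29.96, 30.91 and 29.20 FPKM in replicates 1 to 3, and in Tdo2high MFs CM it was 42.53, 41.78 and 40.82 FPKM. Every Tdo2high MFs CM library was above every control library, and the spread inside each group was small. The means were 30.0 ± 0.857 and 41.7 ± 0.857 FPKM (SD, n = 3 per group), 1.39-fold higher with Tdo2high MFs CM. The log2 fold change was 0.46 ± 0.03 (SE, 95% interval 0.39 to 0.53, adjusted p = 3.70e-05 by limma), the 70th largest in size among the tested genes. Over the alternatives it ran from 0.44 to 0.48, with an adjusted p of at most 0.00126. Id2 lies on chromosome 12 from 25093799 to 25096092 (GRCm38).

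Id3, whose product also pairs with E proteins, moved the other way. It stood at 10.02, 10.37 and 10.07 FPKM in control CM and at 9.38, 7.65 and 7.62 FPKM in Tdo2high MFs CM. The groups did not overlap, but Tdo2high MFs CM replicate 1 lay nearer the control libraries than replicates 2 and 3 did. The mean went from 10.2 ± 0.189 to 8.22 ± 1.01 FPKM, a log2 fold change of -0.28 ± 0.07 (95% interval -0.44 to -0.13, adjusted p = 0.0378 by limma). The call was lost in 9 of 16 alternatives, with the direction the same in all. It ended when all genes were tested unfiltered (limma, adjusted p = 0.124), without a variance trend, under quantile normalization, with the replicate block (adjusted p = 0.0518 by limma) and without any 1 library other than Tdo2high MFs CM replicate 1 (adjusted p 0.0873 to 0.126 by limma). Without that library the log2 fold change was -0.37 (adjusted p = 0.00481 by limma). Id3 lies on chromosome 4 from 136143822 to 136145392.

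Id1, the family member most often used as a readout of BMP signalling, did not pass. It had 9.69, 9.19 and 7.90 FPKM in control CM and 8.55, 6.27 and 9.31 FPKM in Tdo2high MFs CM. The groups overlapped, and Tdo2high MFs CM replicate 2 was the lowest of the 6. The means of 8.93 ± 0.924 and 8.04 ± 1.58 FPKM gave a log2 fold change of -0.15 with a wide 95% interval, from -0.41 to 0.11 (adjusted p = 0.488 by limma). The direction rested on 1 library: the log2 fold change was 0.0037 without Tdo2high MFs CM replicate 2, and -0.25 without Tdo2high MFs CM replicate 3. The interval also holds 0 and a fall as large as the one of Id3. Id4, the remaining family member, did not exceed 0.18 FPKM in any library and was not tested. Id1 lies on chromosome 2 from 152736251 to 152737410.

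Because FPKM is scaled by length, the 3 expressed Id genes can be set side by side. Their summed level was 49.1 ± 1.72 FPKM in control CM and 58.0 ± 2.39 FPKM in Tdo2high MFs CM, and the groups did not overlap. Id2 made up 60.3%, 61.2% and 61.9% of that sum in the control libraries and 70.3%, 75.0% and 70.7% in the Tdo2high MFs CM libraries. The larger Id2 share thus came with a larger sum, not with a constant one. The level of Id2 was 2.99, 2.98 and 2.90 times that of Id3 in control CM and 4.53, 5.46 and 5.36 times in Tdo2high MFs CM. Every library with Tdo2high MFs CM was above every control library in this ratio, which restates the opposite changes of both genes. The ratio of Id1 to Id3 overlapped between the groups, at 0.785 to 0.967 in control CM and 0.820 to 1.22 in Tdo2high MFs CM.

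**Figure D1:**
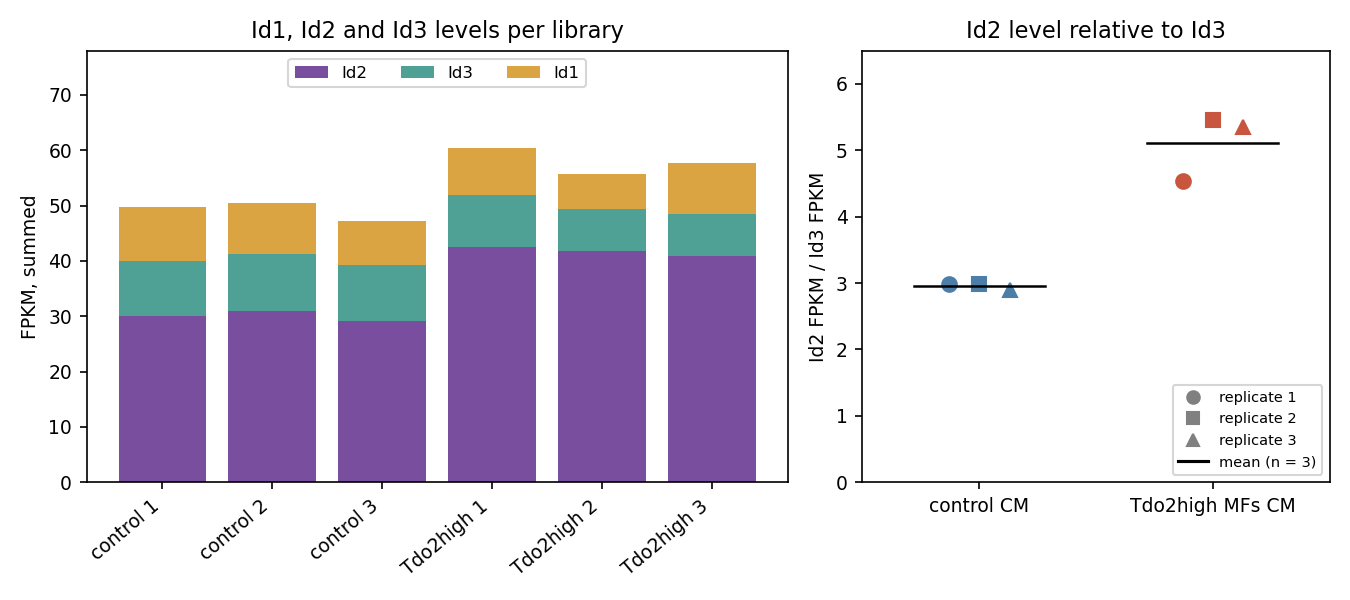
Levels of Id1, Id2 and Id3 (FPKM, stacked bars, 1 bar per library) and the level of Id2 divided by that of Id3 (points, 1 per library, line at the mean of 3). The stacks grow from between 47.2 and 50.5 FPKM in control CM to between 55.7 and 60.5 FPKM in Tdo2high MFs CM through the Id2 part, while the Id3 part shrinks.

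Smad6 encodes an inhibitory SMAD that acts mainly against BMP receptors. Its mRNA was low, at 1.35, 1.5 and 1.54 FPKM in control CM and 1.90, 1.88 and 1.66 FPKM in Tdo2high MFs CM. Each Tdo2high MFs CM library was above each control library, although replicate 3 exceeded the highest control by little. The means were 1.46 ± 0.10 and 1.81 ± 0.133 FPKM, 1.24-fold apart. The log2 fold change of 0.19 ± 0.07 (95% interval 0.03 to 0.36) did not pass over all genes (adjusted p = 0.153 by limma), nor in any of the 15 alternatives that tested it (adjusted p 0.0701 to 0.327). Smad6 lies on chromosome 9 from 63953076 to 64022085.

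**Figure D2:**
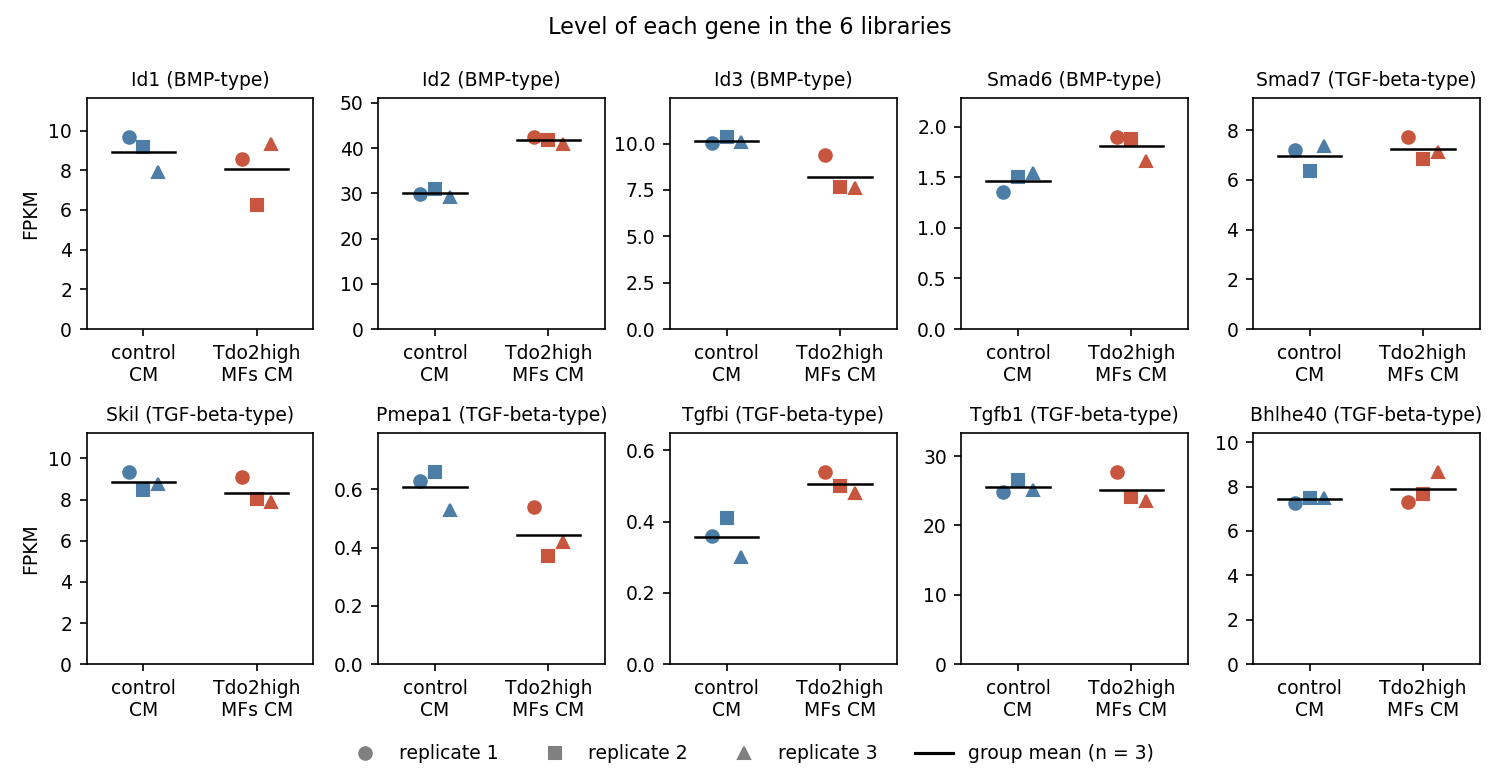
FPKM (vertical axes, each from 0) of the 10 genes in the 6 libraries, by medium; points are libraries, with 1 shape per replicate number, and lines are the means of 3. Id2 stands between 29.20 and 30.91 FPKM in control CM and between 40.82 and 42.53 FPKM in Tdo2high MFs CM, and most other genes overlap between the media.

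Among the TGF-beta-type genes none of the 4 tested passed. Smad7, the inhibitory SMAD that blocks TGF-beta receptors and that BMP signals can also raise, had 7.20, 6.37 and 7.38 FPKM in control CM and 7.74, 6.86 and 7.14 FPKM in Tdo2high MFs CM. The groups overlapped, and the log2 fold change was 0.05 (95% interval -0.09 to 0.19, adjusted p = 0.696 by limma). It was -0.0089 without control CM replicate 2. Skil, which encodes a repressor of SMAD complexes, had 9.35, 8.46 and 8.75 FPKM in control CM and 9.09, 8.04 and 7.87 FPKM in Tdo2high MFs CM. Replicates 2 and 3 with Tdo2high MFs CM were below all controls and replicate 1 was not. Its log2 fold change was -0.08 (95% interval -0.21 to 0.05, adjusted p = 0.464 by limma).

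Tgfb1, the ligand itself and a target of its own pathway, was the second most abundant of the 10 genes. It had 24.80, 26.55 and 25.11 FPKM in control CM and 27.72, 24.06 and 23.45 FPKM in Tdo2high MFs CM. The highest and the lowest library were both of the Tdo2high MFs CM group. The log2 fold change was -0.03 (95% interval -0.15 to 0.10, adjusted p = 0.830 by limma), and its sign differed in 3 of 16 alternatives. Tgfb1 lies on chromosome 7 from 25687002 to 25705077, and Skil on chromosome 3 from 31095058 to 31122923. Bhlhe40, a transcriptional repressor of the clock and of hypoxia responses that TGF-beta can also raise, had 7.28, 7.48 and 7.49 FPKM in control CM and 7.31, 7.67 and 8.66 FPKM in Tdo2high MFs CM. One library, Tdo2high MFs CM replicate 3, stood above the rest. The log2 fold change was 0.07 (95% interval -0.06 to 0.21, adjusted p = 0.487 by limma). An antisense gene overlaps its exons in GENCODE M21, and since the use of strand in the counting is not stated, reads of both cannot be told apart. None of the other 9 genes had such an overlap. Bhlhe40 lies on chromosome 6 from 108660629 to 108666925.

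The 2 genes below the filter stood on opposite sides of no change. Pmepa1, a membrane protein that traps receptor-activated SMADs, had 0.63, 0.66 and 0.53 FPKM in control CM and 0.54, 0.37 and 0.42 FPKM in Tdo2high MFs CM. The groups overlapped by 1 library, and the ratio of the means was 0.731. Tgfbi, a secreted matrix protein named for its induction by TGF-beta, had 0.36, 0.41 and 0.30 FPKM in control CM and 0.54, 0.50 and 0.48 FPKM in Tdo2high MFs CM. The groups did not overlap and the ratio of the means was 1.42. Without a filter, where 2.4% of 16397 genes were called, neither passed (adjusted p = 0.212 for Pmepa1 and 0.107 for Tgfbi by limma). Pmepa1 lies on chromosome 2 from 173224458 to 173276731 and Tgfbi on chromosome 13 from 56609586 to 56639359. At such levels rounding to 2 decimals is itself a visible part of the value.

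**Figure D3:**
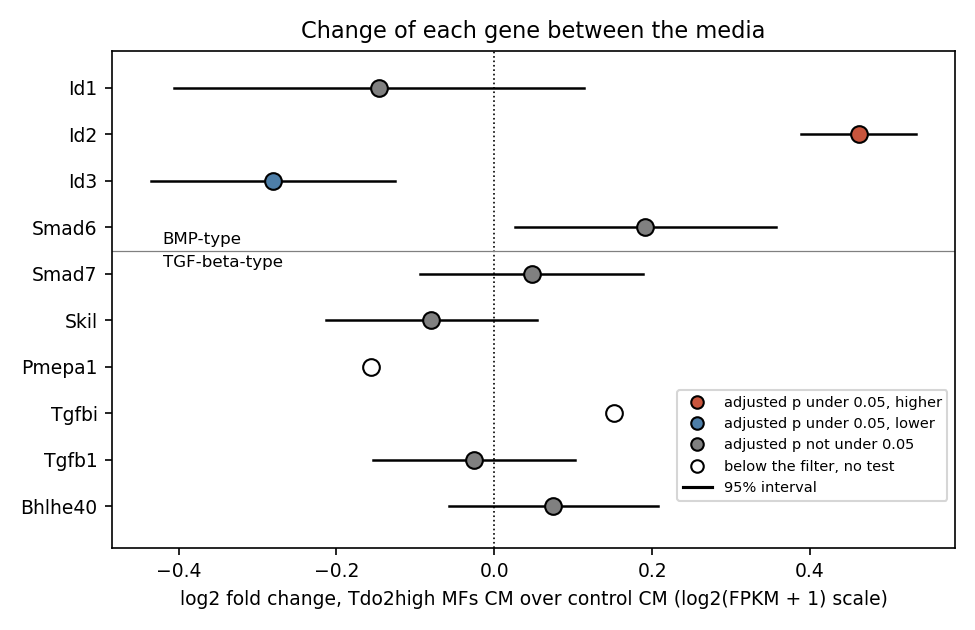
Log2 fold change of each gene between the media (horizontal axis, log2(FPKM + 1) scale) with its 95% interval from limma; open points are genes below the filter, which have no test. Id2 lies alone at 0.46, Id3 at -0.28, and the intervals of the 4 tested TGF-beta-type genes all include 0.

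The BMP-type genes differed in direction among themselves, so their median says little about them. The groups did not overlap in 3 of the 4 BMP-type genes, Id2 and Smad6 higher and Id3 lower, and overlapped in the 4 tested TGF-beta-type genes. Tgfbi, a TGF-beta-type gene below the filter, was higher without overlap. Of all tested genes 29.2% showed no overlap, so nothing particular to either type is read from these counts. The median log2 fold change was 0.02 over the 4 BMP-type genes and 0.01 over the 6 TGF-beta-type genes, beside -0.01 over all tested genes. On the log2(FPKM + 1) scale the BMP-type genes ran from -0.28 to 0.46 and the TGF-beta-type genes from -0.16 to 0.15. Both ends of the latter range were genes below the filter, Pmepa1 and Tgfbi, whose changes this scale understates. With a pseudocount of 0.1 they were at -0.39 and 0.42, beside -0.31 for Id3 and 0.47 for Id2. With 0.5, Pmepa1 and Tgfbi were at -0.23 and 0.23, beside -0.30 for Id3 and 0.47 for Id2. The BMP-type genes were thus spread more widely with a pseudocount of 0.5 or 1. With 0.1 both types were spread about equally, through the 2 genes below the filter. Measured in each library as the median change from the control mean, BMP-type minus TGF-beta-type was -0.02, 0.01 and -0.01 in control CM and 0.02, -0.02 and 0.13 in Tdo2high MFs CM (log2). These differences overlapped between the groups. With the TGF-beta-type genes cut to Skil, Pmepa1 and Tgfbi, their median was -0.08. Without Tdo2high MFs CM replicate 1 the median over all 6 was -0.05.

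Inside the Tdo2high MFs CM group, 1 library stood above the other two for most of these genes. Replicate 1 exceeded the mean of replicates 2 and 3 in 7 of the 8 tested genes, Bhlhe40 being the exception, where 51.1% of all tested genes did so. Counting Pmepa1 and Tgfbi, which were below the filter, it did so in 9 of 10. The ratio was largest for Pmepa1, at 1.37, and Id3, at 1.23, and reached 1.17 for Tgfb1 and 1.14 for Skil. For Id2 it was 1.03, within a spread far smaller than the difference between the media. The cause of this shift was not tested.

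The genes spanned a wide range of levels. In control CM Id2 was followed by Tgfb1, Id3, Id1, Skil, Bhlhe40, Smad7, Smad6, Pmepa1 and Tgfbi. The values of Id1 and Skil overlapped there, as did those of Bhlhe40 and Smad7, and no other neighbours in that order did. In Tdo2high MFs CM the levels of Skil, Id3, Id1, Bhlhe40 and Smad7 lay between 6.27 and 9.38 FPKM, with each overlapping the next. Pmepa1 and Tgfbi, ordered without overlap in control CM, overlapped in Tdo2high MFs CM.

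The rest of the pathway was read from lists arranged by role. The table held 108 such genes, and 70 of them were tested, of which 3 rose and 7 fell, with a median log2 fold change of 0.002. That is 14.3% of the genes listed and tested, beside 7.41% of all tested genes; the lists were chosen with earlier results of these data known, and nothing particular to the pathway is read from this share. Among TGF-beta and activin ligands and their latency proteins 0 of 11 tested passed, although Inhbb was higher and Inhba lower without overlap. Thbs1, an activator of latent TGF-beta, was at 265 ± 5.61 and 276 ± 5.14 FPKM in control and Tdo2high MFs CM. Tgfb3 was at 92.5 and 93.4 FPKM. Of 13 BMP ligands listed, 9 were in the table, and these were below 1 FPKM in every library, led by Bmp7 at no more than 0.67 FPKM. Bmp2, Bmp6, Bmp8a and Gdf6 were not analysed here.

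Among receptors and co-receptors 1 of 13 tested rose and 1 fell. Tgfbr1, the type I TGF-beta receptor kinase, had 22.67, 22.28 and 21.99 FPKM in control CM and 27.78, 27.38 and 27.10 FPKM in Tdo2high MFs CM. The groups were well apart, with a log2 fold change of 0.29 ± 0.03 (adjusted p = 0.000739 by limma), and the call held in 16 of 16 alternatives added after seeing the data. Its partner Tgfbr2, the type II receptor, was at 68.2 ± 1.94 and 66.9 ± 0.713 FPKM and did not pass (95% interval -0.09 to 0.04). Rgma, a BMP co-receptor, went from 15.5 ± 0.712 to 13.5 ± 0.762 FPKM (-0.19, adjusted p = 0.0475 by limma), a call lost in 10 of 16 alternatives, among them the fits without any 1 library except Tdo2high MFs CM replicate 3 (adjusted p 0.0726 to 0.137 by limma). The BMP receptors Bmpr1a (0.01) and Bmpr2 (0.01) did not pass. None of 5 tested signalling SMADs passed. Smad3, the most abundant at 104 ± 1.71 and 109 ± 2.14 FPKM, was higher without overlap (adjusted p = 0.193 by limma). Smad5 was lower without overlap.

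Of 14 intracellular SMAD regulators 1 rose, Wwp1, a ubiquitin ligase that works with SMAD7, from 33.4 ± 0.366 to 36.5 ± 0.542 FPKM (0.12, adjusted p = 0.0314 by limma). This call was lost in 9 of 16 alternatives, among them the fits without any 1 of the 6 libraries (adjusted p 0.0668 to 0.0978 by limma). Ski, the close relative of Skil, was at 54.9 ± 0.557 and 51.2 ± 0.743 FPKM without overlap and did not pass (-0.10, adjusted p = 0.0590 by limma). None of 5 tested extracellular antagonists passed. Crim1 and Fstl3 were lower with Tdo2high MFs CM without overlap (adjusted p = 0.116 and 0.200 by limma). Over all 6 libraries Nbl1 and then Crim1 had the highest means, although Twsg1 was above Crim1 in Tdo2high MFs CM (41.2 and 39.9 FPKM). Nog and Bambi did not exceed 0.17 and 0.01 FPKM. Of 6 other BMP-type targets in the table only Runx2 was tested, and it did not pass (0.07, adjusted p = 0.469 by limma).

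Other genes that TGF-beta is known to raise gave 3 falls and 1 rise among 13 tested. Of all tested genes 4.06% fell and 3.35% rose. This list too was chosen with earlier results of these data known, so no direction of the pathway is read from it. Fibronectin, Fn1, was at 308, 306 and 332 FPKM in control CM and 263, 259 and 254 FPKM in Tdo2high MFs CM (-0.29, adjusted p = 0.00137 by limma). Snai1, a repressor of epithelial genes, went from 13.4 ± 0.301 to 11.0 ± 0.303 FPKM, and Pdgfb, a platelet-derived growth factor chain, from 9.06 ± 0.257 to 7.01 ± 0.495 FPKM. The 3 falls held in all 16 alternatives, as did the rise of Vegfa, an angiogenic factor, from 44.1 ± 0.409 to 50.0 ± 0.875 FPKM. Ccn2, a matricellular protein gene, did not pass, at 11.6 ± 0.185 and 12.7 ± 0.978 FPKM.

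**Figure D4:**
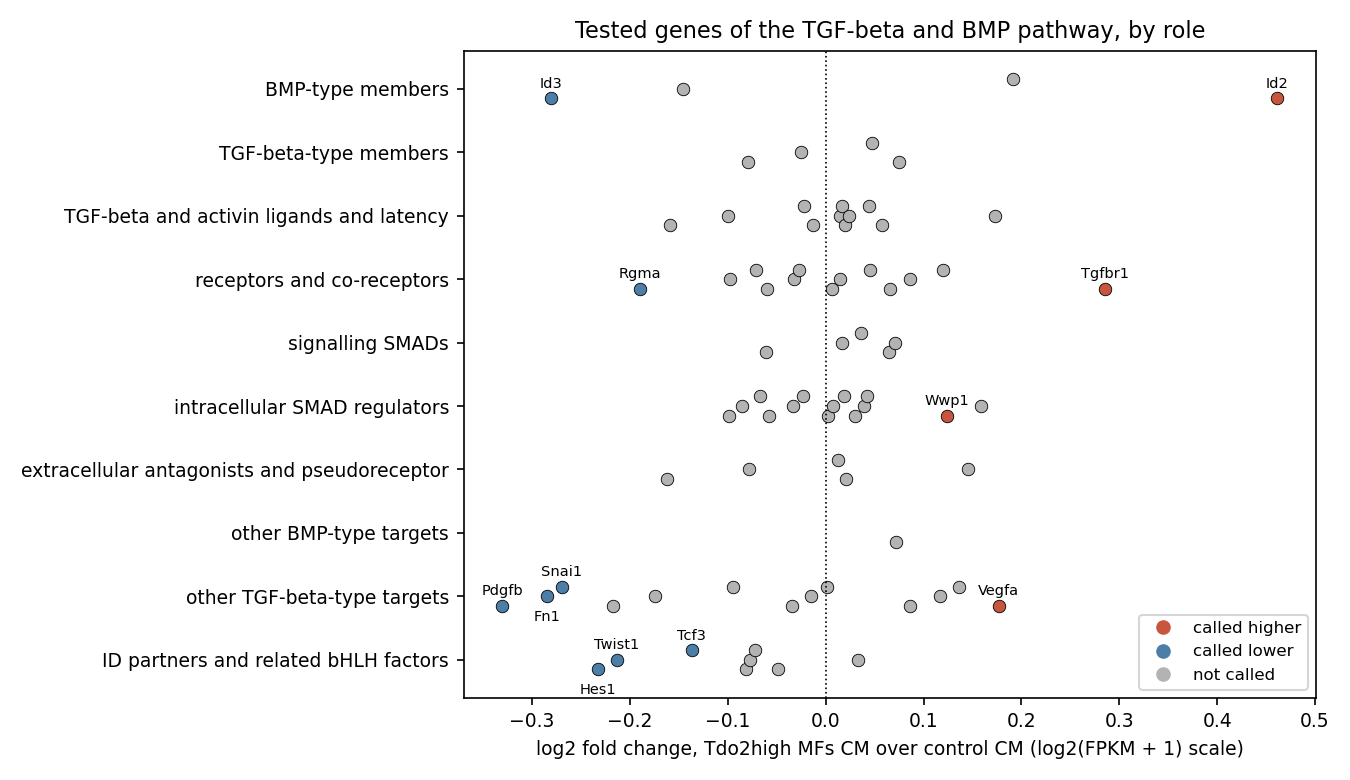
Log2 fold change between the media (horizontal axis, log2(FPKM + 1) scale) of each tested gene of the TGF-beta and BMP pathway, by role; points are genes, coloured and named where called by limma, with vertical offsets for legibility only. The 8 tested genes described in detail fill the top 2 rows, and Id2 at 0.46 lies farthest to the right of all genes shown.

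ID proteins act on other helix-loop-helix factors. A list of ID partners and related factors, not all of them bound by ID proteins, held 8 tested genes. Of these 3 fell and none rose, where 4.06% of all tested genes fell and 3.35% rose. Since this list was also chosen with earlier results of these data known, nothing particular to ID partners is read from that count. Tcf3, which encodes an E protein bound by ID proteins, went from 37.3 ± 1.29 to 33.9 ± 0.887 FPKM (-0.14, adjusted p = 0.0445 by limma), a call lost in 11 of 16 alternatives, among them the fits without any 1 of the 6 libraries (adjusted p 0.0557 to 0.139 by limma). Twist1, a mesenchymal factor that pairs with E proteins, went from 26.9 ± 1.28 to 23.0 ± 0.633 FPKM (-0.21, adjusted p = 0.0135 by limma) and kept its call in 15 of 16, all but the fit without Tdo2high MFs CM replicate 3 (adjusted p = 0.0512 by limma). Hes1, a Notch-responsive repressor, went from 10.5 ± 0.240 to 8.82 ± 0.630 FPKM (-0.23, adjusted p = 0.0281 by limma). Its call was lost in 6 of 16, with no filter and without any 1 library except Tdo2high MFs CM replicate 3 (adjusted p 0.0520 to 0.0867 by limma). The other E proteins Tcf4, at 63.0 and 64.4 FPKM, and Tcf12, at 37.2 and 36.0 FPKM, did not pass.

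The tested genes whose values followed those of Id2 most closely over the 6 libraries were Tkt (Pearson's r = 0.998), Fads2 (0.997) and Gstm1 (0.997). All 3 were higher with Tdo2high MFs CM, Tkt from 177 ± 3.83 to 214 ± 1.71 FPKM, and Gstm1 has close paralogs that can share reads. For Id3 they were Uhrf2 (0.994), Pfkl (0.989) and Fam118b (0.985), none of which passed the test. The 6 libraries fall into 2 media, so any gene with a similar step between them scores high, and these values are a description.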

How the data were processed

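PolyA RNA of 6 samples, 3 per group, was sequenced at BGI from random-hexamer cDNA, per the labels' protocols. The authors deposited FPKM values for 16426 genes, rounded to 2 decimals, per the file headers; the build was GRCm38, per the submitters' processing notes, and the sources used here do not name the aligner, quantifier or annotation. Samples were grouped by title. Low values showed no steps of whole reads (mean distance to a whole multiple of a gene's smallest value 0.253, beside 0.25 without steps), so depth is unknown and no count model was used.

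The 10804 genes that reached 1 FPKM in 3 or more libraries were tested as log2(FPKM + 1) by a two-sided limma 3.58.1 fit in R 4.3.3 with an intensity trend and without a replicate block. P-values were adjusted over all of them after Benjamini and Hochberg, with a threshold of 0.05. The fit was tested on simulated data with independent noise for each gene. Such data hold no shift shared by a library, so that test says nothing about library effects here. An exact permutation test of 3 against 3 cannot go below 0.1 and was not used. All 10 genes are named, then called genes of each list or its most abundant genes, and the 3 genes most correlated with each called gene; further list genes were named after their values were seen. The genes and lists were chosen with earlier results of these data known. A total of 26 symbols that had turned into dates were replaced by gene number. Promoter windows on chromosome 18 were not used here. Alternatives were other pseudocounts (0.1 and 0.5), scalings, filters and models of the variance, the replicate number as a block, and leaving out each library. Figures were drawn with matplotlib 3.10.9.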

Additional observations from a re-analysis of the deposited data

How the results depend on the processing

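Id2 kept its call in all 16 alternatives. The other tested genes of the set that were not called stayed so in every alternative that tested them. The set's count of 2 calls fell to 1, Id2, with no filter on low values, under quantile normalization, without a variance trend and with the replicate block, and ran from 1 to 2 without any 1 library; the cause was not tested. Over all genes the 801 calls became 394 with no filter and 525 without a variance trend, and 395 to 559 without any 1 library. The split of all calls was 362 higher and 439 lower, 320 and 505 on the TPM scale, and 455 and 367 under the median of ratios; these scalings moved the median of all genes by no more than 0.0131 (log2). Without any 1 library the BMP-type median ran from -0.012 to 0.089. The TGF-beta-type median ran from -0.046 to 0.041 without any 1 library and was -0.080 over Skil, Pmepa1 and Tgfbi. The 10 calls among other pathway genes became 6 to 8 without any 1 library, alternatives chosen after seeing the data. No pairing by replicate number was seen in expression: deviations of same-numbered libraries correlated at -0.023, -0.0305 and 0.018. Differently numbered libraries ran from -0.0765 to 0.0917. With 3 libraries per group these values cannot show whether same-numbered samples were handled together. With the replicate block 622 genes were called, and Id2 had adjusted p = 0.000448 by limma. Read depth is not known, so for Smad6, Pmepa1 and Tgfbi counting error cannot be separated from other spread.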
